A study of Mus musculus with 8 samples.

Results

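The interferon regulatory factor genes (Irf1, Irf2, Irf3, Irf5, Irf7, Irf8 and Irf9) and Nlrc5 were read by their gene names in a table of transcript levels from mouse colon epithelium. These 8 genes are among 55487 genes in the table. The libraries came from colon intestinal epithelial cells, the cell layer that lines the large bowel, of C57BL/6J mice. There were 4 wild type (WT) libraries and 4 labelled PIM1+/-, a notation for 1 altered copy of the kinase gene Pim1. Neither the structure of that allele nor the age of the mice is stated in the labels. Levels were in TPM, a transcript abundance scaled to a fixed sum in each library, which corrects for gene length and so can be compared between genes. Nor do the labels state that each library came from a separate animal, so each p-value reflects only how far these libraries spread.

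Interferon regulatory factors are transcription factors that share a DNA-binding domain and recognise GAAA repeats in the promoters of interferon and interferon-stimulated genes. IRF3, IRF5 and IRF7 act below pathogen sensors and switch on interferon genes, and IRF9 joins STAT2 in ISGF3, the complex that carries the type I and type III interferon signal to its target genes. IRF1 and IRF8 are induced by interferon gamma, and IRF2 competes with IRF1 for the same DNA element. NLRC5 is a protein of the NOD-like receptor (NLR) family that has no DNA-binding domain of its own and activates MHC class I genes through a complex assembled on their promoters.

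A pair of sequence elements ties these genes to the interferon signal: the gamma-activated site (GAS), bound by STAT dimers, and the interferon-stimulated response element (ISRE), bound by ISGF3 and by the IRF proteins. Promoter windows from RefSeq on GRCm38.p6, from 250 bases before to 50 bases after an annotated start, were searched for TTCNNNGAA (GAS, its own reverse complement, N being any base) and for the ISRE, read as a pair of GAAA blocks set 2 bases apart, on either strand. The motifs do not share letters at any match listed here. Windows were found for 7 of the 8 genes, 10 windows in all, and the table held none for Nlrc5. GAS letters occurred in windows of 3 members (Irf1, Irf2 and Irf8) and for 9.55% of all 27025 genes in the table (8.3% of its 32851 windows). ISRE letters occurred for 1 member (Irf2) and for 3.99% of all genes (3.44% of windows). The 250 bases before the start of the 3 members with a match, and of Irf7, which has none, are printed 5′ to 3′ to show these elements in place, with the matches in capitals.
Irf1 promoter, plus strand, chr11:53769764-53770013: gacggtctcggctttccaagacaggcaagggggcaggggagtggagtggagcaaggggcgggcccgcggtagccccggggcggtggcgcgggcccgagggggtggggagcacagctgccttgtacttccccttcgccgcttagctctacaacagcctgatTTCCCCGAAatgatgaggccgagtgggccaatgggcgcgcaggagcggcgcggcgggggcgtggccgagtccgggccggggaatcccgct
Irf2 promoter, plus strand, chr8:46739495-46739744: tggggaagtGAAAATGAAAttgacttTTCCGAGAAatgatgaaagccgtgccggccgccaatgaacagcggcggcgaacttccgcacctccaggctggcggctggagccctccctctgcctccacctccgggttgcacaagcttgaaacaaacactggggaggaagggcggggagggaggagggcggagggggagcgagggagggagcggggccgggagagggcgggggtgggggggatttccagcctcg
Irf8 promoter, plus strand, chr8:120736108-120736357: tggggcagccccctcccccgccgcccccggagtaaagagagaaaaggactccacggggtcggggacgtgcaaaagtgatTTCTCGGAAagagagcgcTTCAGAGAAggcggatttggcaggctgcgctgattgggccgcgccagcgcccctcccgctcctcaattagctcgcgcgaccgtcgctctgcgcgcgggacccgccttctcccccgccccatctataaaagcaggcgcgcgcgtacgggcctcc
Irf7 promoter, minus strand, chr7:141266425-141266674: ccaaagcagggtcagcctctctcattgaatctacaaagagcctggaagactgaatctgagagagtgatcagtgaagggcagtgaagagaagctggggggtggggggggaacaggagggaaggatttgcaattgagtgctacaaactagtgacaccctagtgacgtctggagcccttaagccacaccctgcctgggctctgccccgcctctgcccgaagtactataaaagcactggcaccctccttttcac
The Irf1 match, TTCCCCGAA, begins 90 bases before the start. Irf8 holds a pair of GAS matches, TTCTCGGAA at 171 and TTCAGAGAA at 153 bases before the start. Irf2 holds an ISRE match, GAAAATGAAA, at 241 bases and a GAS match, TTCCGAGAA, at 224 bases before the start. A match is a run of letters and not a measured binding site, and a window without one says only that these letters are not in it.

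In PIM1+/- libraries Irf1, Irf7, Irf8, Irf9 and Nlrc5 were higher than in WT, with ratios of mean TPM from 1.38 for Irf8 to 18.9 for Nlrc5. Irf2 and Irf3 did not pass the test, and Irf5 was too low to be tested. The test, limma on log2(TPM + 1), took every gene that reached 1 TPM in 4 or more of the 8 libraries, and its threshold was an adjusted p under 0.05 over those 12760 genes. A fold change on that scale understates the change of genes near 1 TPM. Of the 8 members 7 were tested, 5 were higher and 0 were lower. Among these, Nlrc5 reached 1 TPM in fewer than 4 WT libraries and so needed PIM1+/- libraries to enter the test. Over all genes tested, 17.5% passed in either direction, 8.93% higher and 8.54% lower. The median log2 fold change of the 7 was 0.51, beside -0.01 over all genes tested. All 4 PIM1+/- libraries lay above all 4 WT libraries for the same 5 members, an arrangement found for 11.9% of the tested genes.

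**Figure D1:**
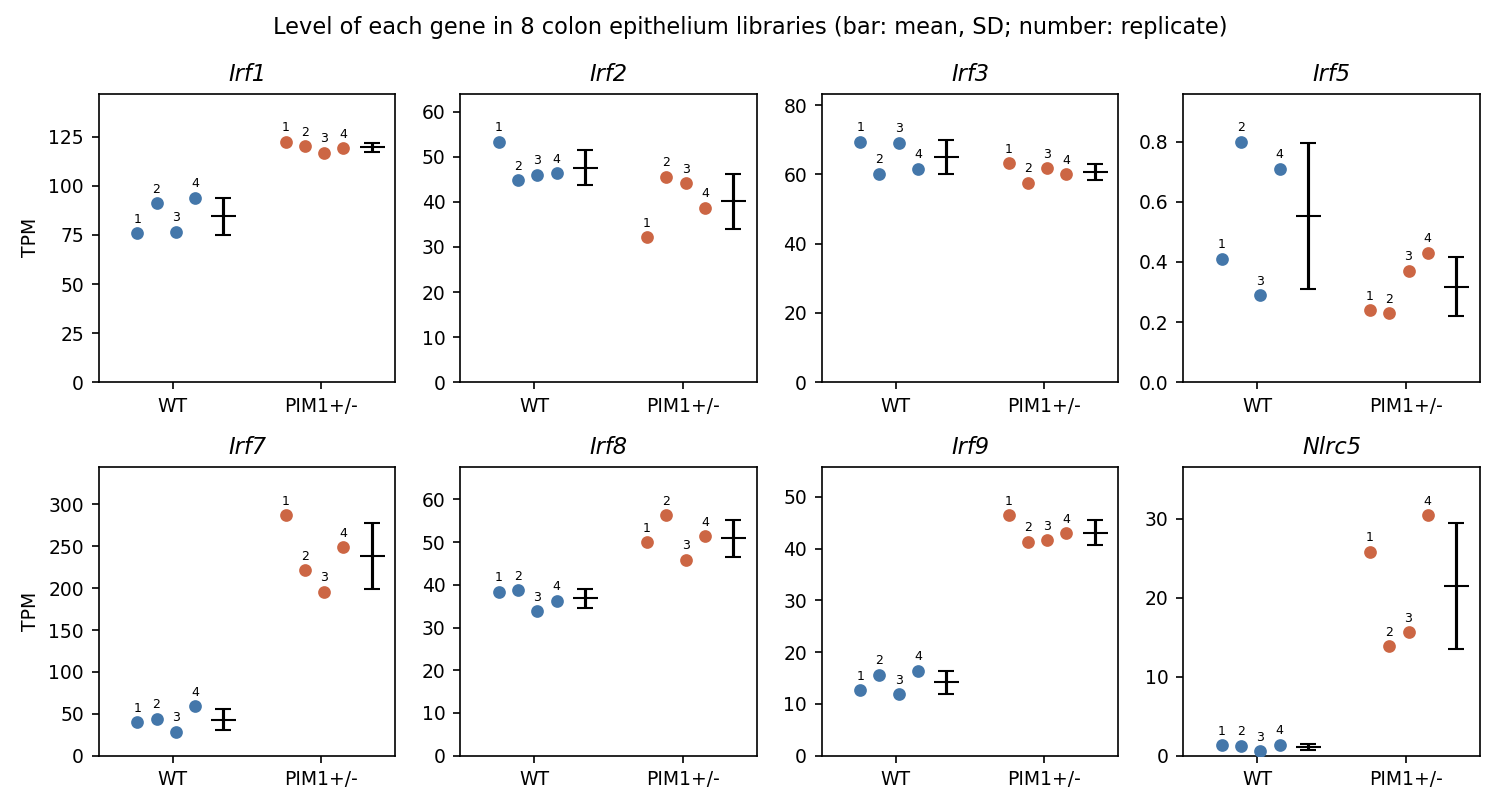
TPM of each of the 8 genes in the 4 WT (blue) and 4 PIM1+/- (orange) libraries, each point numbered by replicate, with the mean and SD as a bar beside the points and a separate linear axis from 0 for each gene. Irf1, Irf7, Irf8, Irf9 and Nlrc5 do not overlap between genotypes, while Irf2, Irf3 and Irf5 do.

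Quality of the libraries and the label of the cells were read once for all results. Library totals were 990958 to 992187 TPM, and since TPM carry no record of sequencing depth, the depth of these values is unknown. Pim1 itself measured 5.72 to 8.83 TPM in WT and 5.64 to 7.97 TPM in PIM1+/- libraries (limma adjusted p = 0.411). Epithelial markers were present as the label says, with Epcam at 1177 to 1402 TPM. The 16 epithelial markers summed to 22091 to 27941 TPM in WT and 31314 to 37908 TPM in PIM1+/-, with 9 higher and 2 lower (Cdx1 and Car2). Car1 alone had means of 7135 and 12859 TPM. Transcripts of the mitochondrial genome summed to 159650 to 182246 TPM in WT and 124178 to 135706 TPM in PIM1+/-, without overlap, and their nuclear copies to 106630 to 119123 and 82692 to 97043 TPM. Markers of T cells, NK cells and intraepithelial lymphocytes (16 genes) summed to 13.1 to 28.1 TPM in WT and 47.5 to 114 TPM in PIM1+/-, with 8 of 12 tested genes higher. Of those 8, 2 lay below 1 TPM in every WT library and so entered the test through PIM1+/- alone. Cd3e (0.73 to 1.19 TPM in WT), Nkg7 (0.66 to 1.35) and Gzmb (0.43 to 1.18) also needed PIM1+/- libraries to pass the filter. Without the filter 7 of 16 passed. Markers of macrophages, dendritic cells and granulocytes (18 genes) summed to 3.32 to 6.95 and 11.9 to 13.9 TPM, with 1 of 4 tested genes, C1qa, higher and S100a9 at 0 in every library. C1qa, at 0.25 to 1.05 TPM in WT, likewise needed PIM1+/- libraries to pass the filter. The B and plasma cell list summed to 4.27 to 14.5 and 8.25 to 13.5 TPM, the fibroblast list to 2.73 to 3.26 and 2.57 to 4.65, the smooth muscle list to 0.12 to 1.49 and 0.15 to 0.37, and the endothelial list to 3.55 to 5.76 and 3.22 to 4.2, with no tested gene called and Lum and Tie1 at 0 in every library. In bulk RNA, fewer cells of a type and less RNA per cell cannot be told apart.

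Irf7, the factor that amplifies type I interferon production once interferon has induced it, had the highest level of all members in PIM1+/- libraries. The gene (ENSMUSG00000025498) lies on chromosome 7 at 141262706 to 141266481 on the minus strand. In the order of replicates 1 to 4, used for each gene from here on, WT libraries held it at 40.18, 44.02, 28.45 and 58.99 TPM and PIM1+/- libraries at 287.32, 221.24, 195.72 and 249.03 TPM. The lowest PIM1+/- library was far above the highest WT library, and replicate 3 was the lowest of both genotypes. The means were 42.9 ± 12.6 and 238 ± 39.3 TPM (SD, n = 4 each), a ratio of 5.55 and a log2 fold change of 2.48 ± 0.20 (SE, 95% interval 2.03 to 2.92, limma adjusted p = 9.54e-05). The exact permutation p over the 8 libraries was 0.0286, two-sided, the smallest that 4 against 4 libraries allow.

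Irf3, the closest relative of Irf7, is made at a steady level in most cells and waits in the cytoplasm for phosphorylation. It lies on the same chromosome (ENSMUSG00000003184, 44997648 to 45002848, plus strand) and measured 69.46, 60.19, 69.17 and 61.59 TPM in WT and 63.27, 57.59, 61.77 and 60.12 TPM in PIM1+/- libraries. PIM1+/- replicates 1 and 3 lay inside the WT range and replicates 2 and 4 below it. Its log2 fold change of -0.10 ± 0.06 had a 95% interval from -0.24 to 0.05 (limma adjusted p = 0.33, exact permutation p = 0.229). After TPM were rescaled without mitochondrial transcripts and their nuclear copies, which moved the median of all genes from -0.01 to -0.11, Irf3 stood at -0.21 and passed as lower (adjusted p = 0.0363). The difference between Irf7 and Irf3 on the log2 scale went from -0.63 ± 0.51 in WT to 1.94 ± 0.22 in PIM1+/- (SD, n = 4 each). That shift of 2.58 (SE 0.28) had an exact permutation p of 0.0286, or 0.0381 adjusted over the 4 pairs of genes compared, and the libraries did not overlap. Irf3 was thus the higher of both genes in all 4 WT libraries and Irf7 in all 4 PIM1+/- libraries.

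Irf5, the third factor of this arm and mainly a gene of myeloid and B cells, was close to absent. The gene (ENSMUSG00000029771, chromosome 6, 29526625 to 29541871, plus strand) measured 0.41, 0.8, 0.29 and 0.71 TPM in WT and 0.24, 0.23, 0.37 and 0.43 TPM in PIM1+/- libraries. No library reached 1 TPM and the groups overlapped, so it stayed outside the test (exact permutation p = 0.143). Its annotated exons share 411 bases with Tnpo3 on the opposite strand, which measured 25.58 to 30.2 TPM, and no source used here says whether reads were counted by strand.

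The type I and type III interferon genes, many of which IRF3, IRF5 and IRF7 switch on, were at or near 0. Of 15 such genes 13 were listed at 0 in all 8 libraries, including Ifnb1, none exceeded 0.24 TPM and none entered the test. Ifng, the gene of interferon gamma, a lymphocyte product not under these factors, measured 0.27 to 1.02 TPM in WT and 0.35 to 1.96 TPM in PIM1+/- libraries, and its groups overlapped. Of the sensors and kinases that activate these factors 23 were tested, of which 7 were higher and 0 lower, with a median of 0.22. Dhx58, which encodes the RNA helicase LGP2, rose from 6.47 ± 0.915 to 31.4 ± 6.66 TPM (log2 fold change 2.10 ± 0.15, limma adjusted p = 5.31e-05). The RNA sensors Ddx58 (RIG-I) and Ifih1 (MDA5) rose by 1.49 ± 0.14 and 0.97 ± 0.11, and Optn, an adaptor of the kinase TBK1, by 0.43 ± 0.08. Tlr3, Myd88 and Unc93b1 were the other called genes of the list.

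Irf9, the DNA-binding subunit of ISGF3, rose together with its partner Stat2. The gene (ENSMUSG00000002325, chromosome 14, 55603571 to 55610030, plus strand) measured 12.69, 15.68, 11.84 and 16.4 TPM in WT and 46.49, 41.36, 41.66 and 43.0 TPM in PIM1+/- libraries. Every PIM1+/- library was above every WT library, and the PIM1+/- values lay close together, between 41.36 and 46.49 TPM. The ratio of means was 3.05 (14.2 ± 2.23 to 43.1 ± 2.35 TPM) and the log2 fold change 1.55 ± 0.10 (95% interval 1.32 to 1.79, limma adjusted p = 3.45e-05, exact permutation p = 0.0286). Irf9 shares 123 exonic bases with Rnf31 on the same strand, a gene at 12.05 to 21.42 TPM. Stat2 rose from 18.4 ± 1.87 to 61.3 ± 10.7 TPM (1.67 ± 0.12, adjusted p = 4.69e-05). The log2 difference between Irf9 and Stat2 was -0.36 ± 0.13 in WT and -0.48 ± 0.16 in PIM1+/-, a shift of -0.12 (SE 0.11) that the exact permutation test did not separate (p = 0.4, adjusted 0.4), and the libraries overlapped.

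Of 11 receptor and JAK-STAT genes tested, 1 was higher (Stat2) and 1 lower, a share near the 17.5% of all genes, with a median of 0.07. The lower gene was Ifngr1, the ligand-binding chain of the interferon gamma receptor, at 145 ± 3.77 and 128 ± 4.25 TPM (-0.18 ± 0.05, limma adjusted p = 0.0276). Its call was lost on leaving out WT replicate 1, 2 or 4, and likewise PIM1+/- replicate 2 or 4 (adjusted p from 0.0524 to 0.086), in limma without the trend (0.0687) and with the replicate block (0.0904). Jak2 stood at 0.20 ± 0.08 (adjusted p = 0.11) and Ifnar2, a chain of the type I interferon receptor, at 0.38 ± 0.20 (adjusted p = 0.236). All 18 tested target genes of ISGF3 in the list were higher, with a median of 2.7, beside 8.93% higher over all genes tested. Ifi44, Mx2, Ifit3b, Ifit2 and Rsad2 reached 1 TPM in fewer than 4 WT libraries and so needed PIM1+/- libraries to pass the filter. The oligoadenylate synthetase genes Oas2, Oas3 and Oasl2, whose products sense double-stranded RNA or resemble such sensors, rose by 4.02, 3.78 and 3.34. Oas1a of the same family rose from 29.7 ± 1.44 to 101 ± 13.3 TPM (1.73 ± 0.09).

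Genes that restrain IRF and interferon signalling showed a mixed picture, with 4 of 12 higher, 0 lower and a median of 0.09. Over all genes tested 8.93% were higher. With upper quartile scaling 3 restraint genes were higher and 1 lower. After the rescaling without mitochondrial transcripts 2 were higher and 1 lower, with a median of -0.02. Usp18, which removes ISG15 and blocks the type I receptor, rose from 2.03 ± 0.674 to 40.0 ± 17.7 TPM (3.71 ± 0.27, limma adjusted p = 5.5e-05). Usp18 is also on the ISGF3 list. Trim21, a ubiquitin ligase of IRF proteins, rose by 0.50 ± 0.11 (adjusted p = 0.0158). Socs1 (0.56 ± 0.16, adjusted p = 0.044) and Rbck1 (0.17 ± 0.05, adjusted p = 0.0473) passed narrowly, and both calls were lost whichever single library was left out. The range of their adjusted p was then 0.0505 to 0.101 and 0.0633 to 0.102. Without the filter on low values it was 0.117 and 0.0558, and Rbck1 also missed the threshold in limma without the trend (0.0851), with upper quartile scaling (0.112) and with the replicate block (0.101).

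Irf1, which drives antigen presentation and chemokine genes under interferon gamma, was the highest member in WT. The gene (ENSMUSG00000018899, chromosome 11, 53770014 to 53778374, plus strand) measured 75.99, 91.02, 76.71 and 93.91 TPM in WT and 122.53, 120.07, 116.89 and 119.25 TPM in PIM1+/- libraries. The groups did not overlap, and the spread was narrower in PIM1+/-, with a coefficient of variation of 1.94% beside 11.1% in WT. The ratio of means was 1.42 and the log2 fold change 0.51 ± 0.08 (95% interval 0.33 to 0.68, limma adjusted p = 0.00293, exact permutation p = 0.0286).

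Irf8, known chiefly from myeloid and B cells and also made by intestinal epithelium, rose as well. The gene (ENSMUSG00000041515, chromosome 8, 120736358 to 120756694, plus strand) measured 38.4, 38.71, 33.76 and 36.31 TPM in WT and 49.97, 56.31, 45.84 and 51.42 TPM in PIM1+/- libraries. All 4 PIM1+/- libraries were above the highest WT library. The ratio of means was 1.38 and the log2 fold change 0.46 ± 0.07 (95% interval 0.29 to 0.62, limma adjusted p = 0.00425, exact permutation p = 0.0286). Markers of the cells known for Irf8 were read beside it. Of the 18 myeloid markers 12 stayed below 1 TPM in every library, among them Csf1r (at most 0.41 TPM) and Flt3 (at most 0.04), as did Ms4a1 of B cells (at most 0.14) and Siglech of plasmacytoid dendritic cells (at most 0.1). C1qa, a macrophage gene, went from 0.25 to 1.05 TPM in WT to 1.22 to 7.54 TPM in PIM1+/- (limma adjusted p = 0.0131), and Itgax from 0.12 to 0.31 to 0.48 to 0.9 TPM without overlap. Ptprc, the pan-leukocyte gene, went from 1.27 to 2.27 TPM in WT to 2.42 to 5.33 TPM in PIM1+/-. The list for plasmacytoid dendritic cells summed to 1881 to 2156 TPM in WT and 1412 to 1748 TPM in PIM1+/-. Klk1 dominates that sum, with means of 2004 TPM in WT and 1407 TPM in PIM1+/-, beside 18.5 and 131 TPM for Bst2. Of its 5 tested genes 1 was higher, Bst2, which is also on the ISGF3 list, and 1 was lower, Klk1. The part of such cells in the Irf8 result was not tested.

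The calls of Irf1 and Irf8 did not hold with either covariate tried. A score of 21 non-epithelial markers ran from -1.05 to -0.156 in WT and from -0.0441 to 0.904 in PIM1+/- libraries, so it separates the genotypes by itself. With it in the model, Irf1 stood at 0.38 (adjusted p = 0.209) and Irf8 at 0.52 (adjusted p = 0.13), beside 0.51 and 0.46 as reported. A score of 6 posterior Hox genes, which mark position along the gut, ran from 0.276 to 1.04 in WT and from -1.79 to 0.111 in PIM1+/-. With it, Irf1 stood at 0.46 (adjusted p = 0.098) and Irf8 at 0.42 (adjusted p = 0.122). Irf7, Irf9 and Nlrc5 passed with either score, so 3 of the members were then called. Calls over all genes also fell, from 1139 higher and 1090 lower as reported to 109 and 25 with the non-epithelial score. With the posterior Hox score they were 168 and 75. Since both scores differ with genotype, their part in the results and that of genotype cannot be told apart.

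**Figure D2:**
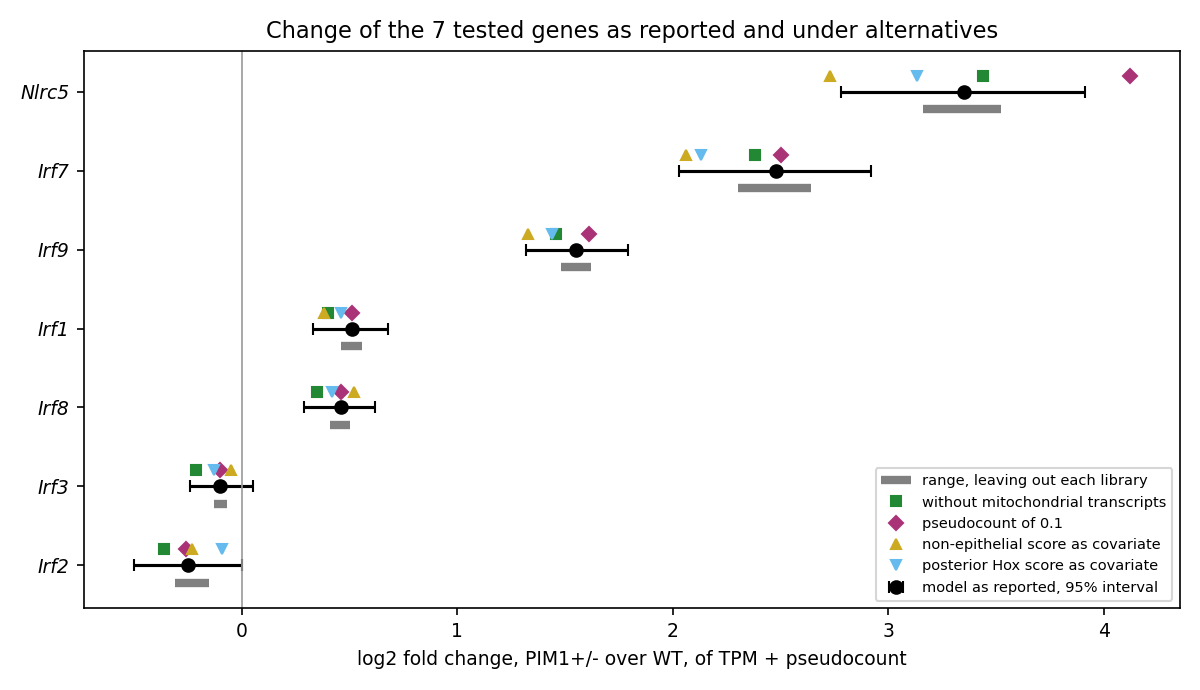
Log2 fold change (PIM1+/- over WT, on the log2(TPM + 1) scale) of the 7 tested genes, with the reported value and its 95% interval in black, 4 alternatives as coloured symbols and the range over fits that leave out 1 library as a grey bar. Nlrc5, Irf7 and Irf9 lie above 1 under each setting drawn, Irf1 and Irf8 lie near 0.5, and Irf2 and Irf3 lie a little below 0.

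Irf2, the competitor of Irf1, did not pass the test. The gene (ENSMUSG00000031627, chromosome 8, 46739732 to 46847458, plus strand) measured 53.38, 44.8, 45.99 and 46.34 TPM in WT and 32.17, 45.55, 44.17 and 38.69 TPM in PIM1+/- libraries. PIM1+/- replicate 2 lay inside the WT range and the other 3 lay below it. The log2 fold change was -0.25 ± 0.11 (limma adjusted p = 0.149, exact permutation p = 0.0571). The log2 difference between Irf1 and Irf2 nevertheless went from 0.81 ± 0.24 in WT to 1.56 ± 0.24 in PIM1+/-. That shift of 0.76 (SE 0.17) had an exact permutation p of 0.0286 (0.0381 adjusted over the 4 pairs), with no overlap between libraries. Of the other family genes, Irf4, a factor of lymphocytes, was at 0, 0.03, 0.05 and 0.03 TPM in WT and 0.1, 0.11, 0.13 and 0.14 TPM in PIM1+/- libraries. These levels do not overlap and lie too low for the filter, and without it limma called Irf4 higher (0.12, adjusted p = 0.0306). Of the IRF2-binding corepressor genes 3 were tested, of which 0 were higher and 1 lower, with a median of -0.19. That gene, Irf2bp2, went from 23.8 ± 1.16 to 17.8 ± 3.15 TPM (-0.41 ± 0.11, limma adjusted p = 0.03). Its call was lost on leaving out any 1 library except WT replicate 2 and PIM1+/- replicate 4 (adjusted p from 0.0664 to 0.0757), without a filter (0.073) and with the replicate block (0.0559). Irf2bp1, not called as reported (-0.19 ± 0.07, adjusted p = 0.111), passed as lower with upper quartile scaling (-0.23, adjusted p = 0.0442). It also did so after the rescaling without mitochondrial transcripts (-0.30, adjusted p = 0.0238).

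Of 15 tested genes known to depend on IRF1, 9 were higher and 0 lower, with a median of 1.11. Psmb8, a catalytic subunit of the immunoproteasome, rose from 38.8 ± 9.01 to 187 ± 17.7 TPM (2.26 ± 0.15). The peptide transporter genes Tap1 and Tap2 rose by 2.28 ± 0.17 and 0.90 ± 0.08. Psmb9, Psmb10, Il18bp, Gbp2, Cxcl10 and Ciita were the other called genes, and Casp12 was not tested.

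Nlrc5 had the largest ratio of all members and started from the second lowest level. The gene (ENSMUSG00000074151, chromosome 8, 94434356 to 94527272, plus strand) measured 1.32, 1.27, 0.56 and 1.38 TPM in WT and 25.82, 13.88, 15.64 and 30.44 TPM in PIM1+/- libraries. Every PIM1+/- library was far above every WT library, and PIM1+/- replicates 1 and 4 were well above replicates 2 and 3. WT replicate 3 lay below 1 TPM, so Nlrc5 needed PIM1+/- libraries to pass the filter on low values. The means were 1.13 ± 0.384 and 21.4 ± 7.98 TPM, a ratio of 18.9 and a log2 fold change of 3.35 ± 0.25 (95% interval 2.78 to 3.91, limma adjusted p = 6.53e-05, exact permutation p = 0.0286). With a pseudocount of 0.1 in place of 1 the log2 fold change was 4.12. By size of rise Nlrc5 ranked 23 of 12760 tested genes, Irf7 48, Irf9 128, Irf1 713 and Irf8 827.

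All 9 class I genes listed as NLRC5-dependent were higher, with a median of 1.95. The heavy chain genes H2-K1 and H2-D1 rose from 844 ± 42.8 to 2114 ± 185 TPM (1.32 ± 0.07) and from 442 ± 26.5 to 989 ± 51.6 TPM (1.16 ± 0.06). B2m, the light chain of every class I molecule, rose from 587 ± 63.2 to 2274 ± 263 TPM (1.95 ± 0.10). The non-classical gene H2-Q6 rose by 3.36 ± 0.21, from 2.69 ± 0.759 to 37.4 ± 10.1 TPM. Reads of these near-identical H2 genes may be divided between copies by estimation. Tap1 and Psmb9 are on both this list and the IRF1 list.

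Of the 8 tested genes of proteins with which NLRC5 assembles, limma called 0 higher and 0 lower, with 2 at an unadjusted p under 0.05 and a median of 0.02. Over all genes tested 17.5% were called, and 0 of 8 is near that share. Rfx5 measured 4.81 ± 0.815 and 6.01 ± 1.47 TPM (0.26 ± 0.16, limma adjusted p = 0.295), Rfxank -0.35 ± 0.13 on the log2 scale (adjusted p = 0.0877) and Nfya -0.24 ± 0.09 (adjusted p = 0.0998). After rescaling without mitochondrial transcripts Rfxank and Nfya passed as lower, at -0.46 (adjusted p = 0.0358) and -0.35 (adjusted p = 0.0237). Nfya also passed as lower with upper quartile scaling (-0.28, adjusted p = 0.0438). Without PIM1+/- replicate 1 limma called 1 partner lower. Ciita, the class II counterpart of NLRC5, which uses the same partners, was at 0.3, 0.34, 0.44 and 0.25 TPM in WT and 4.2, 3.88, 5.83 and 4.69 TPM in PIM1+/- libraries. Ciita passed the filter on low values through the PIM1+/- libraries alone and rose by 2.07 ± 0.13 (adjusted p = 2.88e-05). It was listed with these partners but left out of their count, and with it 1 of 9 was higher. Ciita shares 329 exonic bases with Dexi on the opposite strand.

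Whether Nlrc5 moved more than Ciita depended on how low values were treated. On log2(TPM + 1) the difference between both genes went from 0.66 ± 0.37 in WT to 1.93 ± 0.58 in PIM1+/-, a shift of 1.27 (SE 0.34, exact permutation p = 0.0286, adjusted 0.0381) without overlap. With a pseudocount of 0.1 the shift was 0.66 (exact permutation p = 0.257). Without WT replicate 1, 2, 3 or 4 it was 1.33, 1.30, 1.09 and 1.36, each with an exact permutation p of 0.0571. Without PIM1+/- replicate 1, 2, 3 or 4 it was 1.13, 1.38, 1.49 and 1.09, each with an exact permutation p of 0.0286. Among 11 other tested NLR genes 1 was higher and 1 lower, again near the 17.5% of all genes, with a median of -0.10. Nod2, a sensor of bacterial peptidoglycan, went from 0.75 ± 0.22 to 2.0 ± 0.70 TPM (0.76 ± 0.18, adjusted p = 0.0199), a call lost without WT replicate 3 (adjusted p = 0.0519) and without the filter on low values (adjusted p = 0.0541). A single WT library reached 1 TPM, so Nod2 entered the test through the PIM1+/- libraries. Naip6, of the flagellin-sensor group, went from 41.2 ± 1.39 to 34.2 ± 0.828 TPM (-0.26 ± 0.05, adjusted p = 0.00913).

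**Figure D3:**
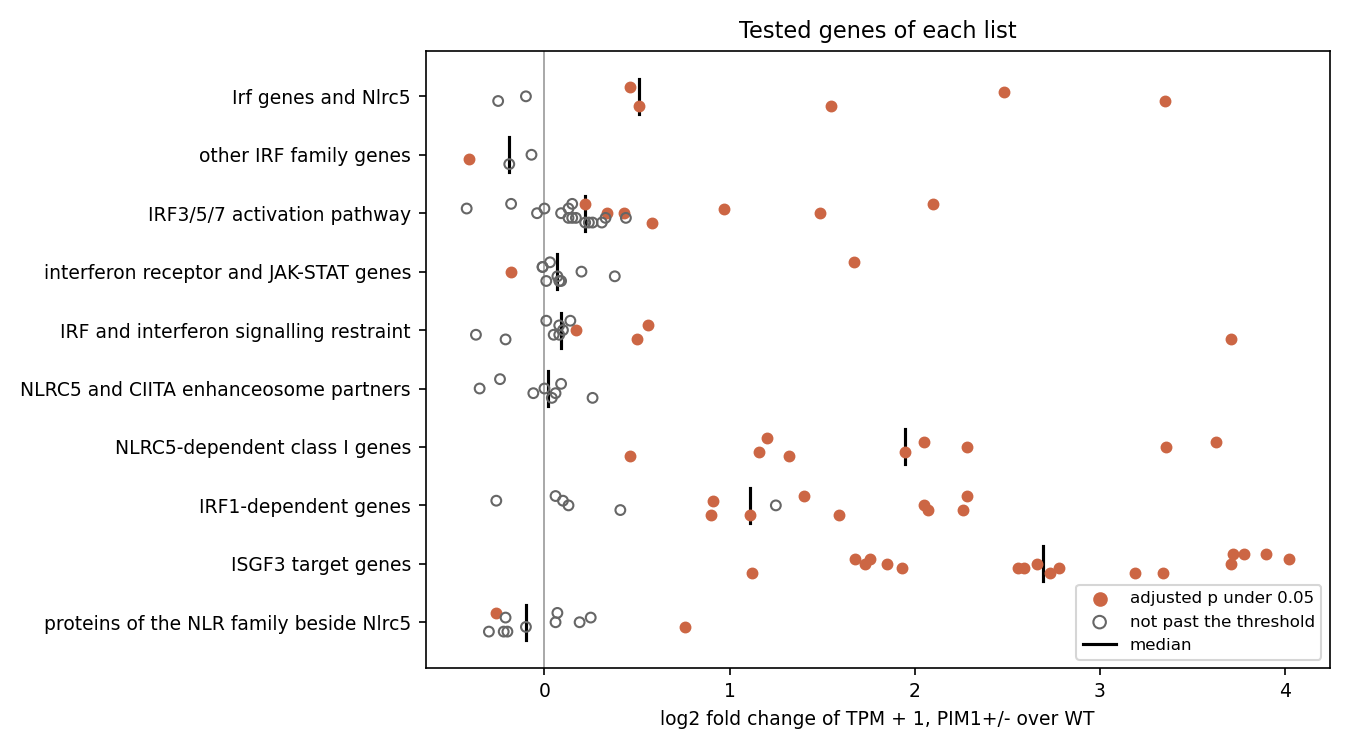
Log2 fold change (PIM1+/- over WT, on the log2(TPM + 1) scale) of each tested gene of 9 lists and, in the top line, of the 7 tested Irf and Nlrc5 genes, each point being 1 gene (filled where the limma adjusted p is under 0.05, open where not) and each vertical bar the median. All 18 ISGF3 targets and all 9 class I genes are filled and above 0. The partners of NLRC5 are drawn without Ciita, and 0 of 8 are filled. Of the receptor and JAK-STAT genes 1 of 11 is filled and above 0. Both counts are near the 8.93% called higher over all genes tested.

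The count of ISGF3 targets called was 17 of 18 without a filter and on leaving out WT replicate 1, 2, 3 or 4 or PIM1+/- replicate 2. That of class I genes was 8 of 9 without a filter, with the replicate block and on leaving out any library but PIM1+/- replicate 2. Of the 23 activation genes 5 were higher with the replicate block and without WT replicate 1 or 4, and 8 without WT replicate 3. After the rescaling without mitochondrial transcripts 5 of them were higher and 1 lower, and with upper quartile scaling 6 and 1. Larger shifts came with the covariates. With the non-epithelial score 12 of 18 ISGF3 targets, 7 of 9 class I genes, 4 of 15 IRF1-dependent genes, 3 of 23 activation genes and 1 of 12 restraint genes were higher. With the posterior Hox score those counts were 15, 8, 6, 3 and 1, and neither score left an NLR or corepressor gene called.

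The changes reordered the family by level. In WT the order of mean TPM was Irf1 84.4, Irf3 65.1, Irf2 47.6, Irf7 42.9, Irf8 36.8, Irf9 14.2, Nlrc5 1.13 and Irf5 0.552. Ranges over the libraries overlapped between the neighbours Irf2 and Irf7, Irf7 and Irf8, and Nlrc5 and Irf5. In PIM1+/- the order was Irf7 238, Irf1 120.0, Irf3 60.7, Irf8 50.9, Irf9 43.1, Irf2 40.1, Nlrc5 21.4 and Irf5 0.318, with overlap between Irf8 and Irf9 and between Irf9 and Irf2. Irf7 thus went from the fourth place to the first, and Irf2 from the third to the sixth.

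Summed TPM of the 7 Irf members was 292 ± 19.8 in WT and 553 ± 39.8 in PIM1+/- libraries. Irf7 made up 14.6 ± 3.34% of that sum in WT and 42.9 ± 3.99% in PIM1+/- libraries. Irf9 went from 4.84 ± 0.497% to 7.81 ± 0.283%. Irf1 took 28.9 ± 2.02% in WT and 21.7 ± 1.18% in PIM1+/-, a smaller share beside its higher TPM. Irf3 went from 22.5 ± 3.0% to 11 ± 0.798% and Irf2 from 16.4 ± 1.72% to 7.34 ± 1.55%. Shares of 1 sum are not independent of each other and were not tested.

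**Figure D4:**
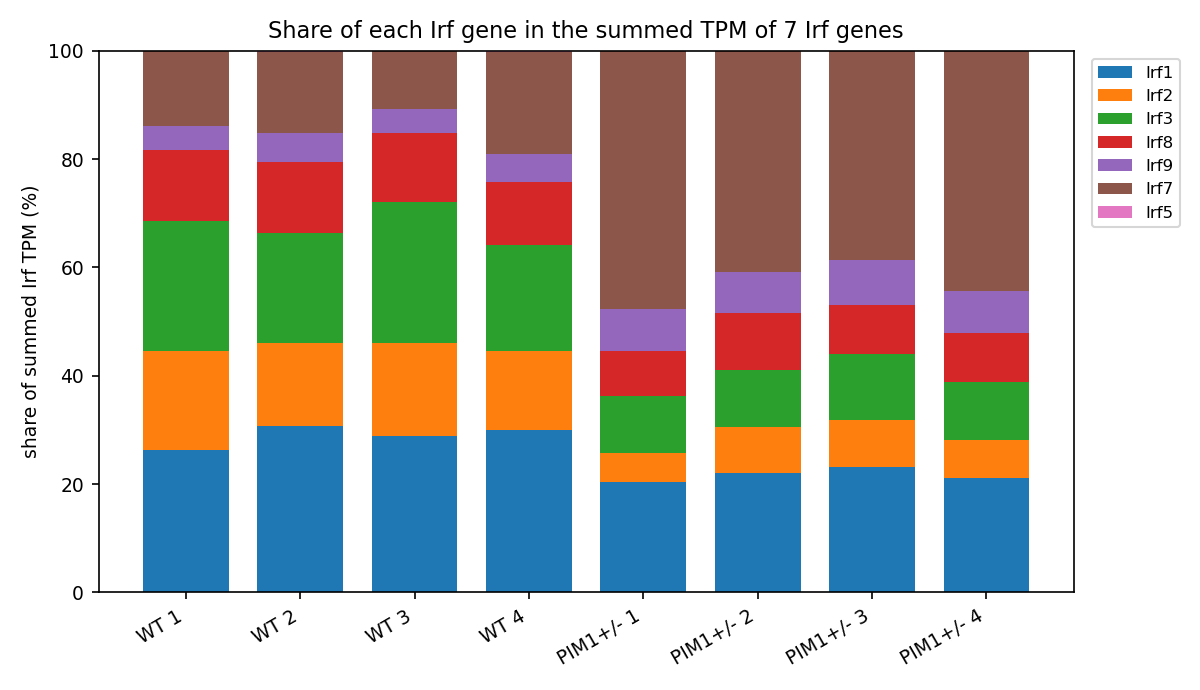
Share of the summed TPM of 7 Irf genes taken by each gene in the 8 libraries, in percent, as stacked bars from 0. The Irf7 band covers 10.7 to 18.8% in WT and 38.6 to 47.7% in PIM1+/- libraries, and Irf5 is too low to be seen.

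Libraries of 1 genotype did not order all members alike. Within WT, replicate 3 was the lowest for 5 members (Irf5, Irf7, Irf8, Irf9 and Nlrc5), and replicate 4 the highest for 4 (Irf1, Irf7, Irf9 and Nlrc5). Within PIM1+/-, replicate 1 was the highest for 4 (Irf1, Irf3, Irf7 and Irf9) and the lowest for Irf2, and replicate 4 was the highest for Irf5 and Nlrc5.

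Profiles over the 8 libraries were compared by the root mean square difference of log2(TPM + 1) after centring each gene on its own mean, a measure in log2 units that is small when genes shift by the same amount in the same libraries. Among members the closest were Irf1 and Irf8 at 0.12, the farthest Irf2 and Nlrc5 at 1.9, and Irf7 lay as near to Irf9 (0.50) as to Nlrc5 (0.51). Over 9539 genes with a mean of at least 5 TPM, the nearest to Irf7 were Lgals9 at 0.19 (66.3 and 344 TPM in WT and PIM1+/-), Ifit3 at 0.21 and Gm5431 at 0.21. Nearest to Irf9 were Dtx3l at 0.11 (9.82 and 27.8 TPM), Parp9 at 0.11 (20.2 and 56.7 TPM) and Parp14 at 0.12 (11.4 and 37.0 TPM). Nearest to Nlrc5 were H2-Q6 at 0.21, Oasl2 at 0.28 and H2-Q7 at 0.32 (5.94 and 84.4 TPM). Irf1 lay nearest to Snx7 (0.066), Trim12c (0.069) and Oma1 (0.077), and Irf8 to Lypd8 (0.055), Rnf114 (0.065) and Misp (0.07). Irf2 lay nearest to Smim24 (0.056), Agfg2 (0.056) and Zfyve16 (0.072), and Irf3 to Sfxn1 (0.015), Ago2 (0.022) and Atp6v0a1 (0.031). These distances describe 8 libraries of 2 genotypes and carry no test.

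The remaining overlaps of annotated exons concern Irf1 (135 bases shared with Gm17334, 1.72 to 2.55 TPM), Irf3 (88 with Bcl2l12, 11.98 to 16.72 TPM), Irf7 (45 with Phrf1, 26.43 to 32.13 TPM) and Nlrc5 (78 with 9330175E14Rik, 0.01 to 0.34 TPM), each on the opposite strand. In each case reads of the neighbour cannot be told apart from those of the member unless strand was used in counting.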

How the data were processed

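Total RNA of colon intestinal epithelial cells was taken up in TRIzol, per the labels' protocols, and read on a NovaSeq, per the design text. The authors deposited 1 table of TPM per gene, for which the design text names RSEM. HISAT2, StringTie, edgeR and the build GRCm38.p6 stand in the submitters' processing notes, with no version and no role. Read depth, annotation release and strand setting: not given in the sources used here. Since TPM add up to a fixed total, a change in abundant transcripts shifts all others. Columns were matched to samples by genotype and replicate number, and 0 columns of values were left out.

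Log2(TPM + 1) of 12760 genes entered a limma fit (version 3.58.1, R 4.3.3; genotype as the single term, empirical Bayes with trend, two-sided, Benjamini-Hochberg over all genes tested, threshold 0.05). Single genes and the 4 differences between pairs of genes were tested by exact permutation over libraries. The fit was tested on simulated data with independent noise for each gene. That simulation held no shift shared between genes, such as that of mitochondrial transcripts or of non-epithelial markers, so it cannot speak to such shifts. The members and gene lists were chosen with earlier results of these data known. The text names the 8 members, Irf4, Stat2, Ciita and Rfx5, in each list up to 4 tested genes with the smallest p, and the 3 genes with the nearest profile to each tested member; other genes are named as called or untested members of a list, or as markers and overlapping neighbours. Some genes of the lists and of this rule are not reported here and were left out of the list counts. The listed names Tmem173, Mb21d1 and Rigi were not matched. They are other names of Sting1, Cgas and Ddx58, which were matched. Gene positions are from GENCODE M21 (GRCm38), which held 55227 of the IDs. Nuclear copies of mitochondrial genes (16) were annotated pseudogenes matching at 90% identity over 80% of their length (BLAST+ 2.17.0). Alternatives were limma without the trend, 2 rescalings, 2 other filters, a 0.1 pseudocount, 2 covariates, a replicate block, and leaving out each library in turn. Figures were drawn with matplotlib 3.10.9.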

Additional observations from a re-analysis of the deposited data

Results flagged for a closer look

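Among groups of 4 libraries, 1 library of a member stood apart from the other 3 by Dixon's criterion: Nlrc5 was at 0.56 TPM in WT replicate 3, with the other WT libraries at 1.27 to 1.38 TPM. Irf2bp2 was at 22.49 TPM in PIM1+/- replicate 4 (others 15.54 to 16.69), the highest of that genotype. Irf2bpl was at 6.36 TPM in PIM1+/- replicate 1 (others 10.95 to 11.41), and the same library held Usp18 at 66.19 TPM (others 27.19 to 33.64). Naip6 was at 35.46 TPM in PIM1+/- replicate 4 (others 33.75 to 33.88), the library in which Trim12c was lowest at 10.82 TPM (others 12.44 to 12.76). Smim24 was at 440.67 TPM in WT replicate 1 (others 361.33 to 369.25). These are 7 of 132 groups searched (5.3%), where chance gives about 5%.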

How the results depend on the processing

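The directions of the 7 tested members held under all 17 alternatives. Irf7 (2.06 to 2.64), Irf9 (1.33 to 1.62) and Nlrc5 (2.73 to 4.12) also stayed past the threshold in each, with adjusted p up to 0.032, 0.0147 and 0.0218. Irf1 ranged from 0.38 to 0.56 and Irf8 from 0.35 to 0.52, Irf2 from -0.36 to -0.09 and Irf3 from -0.21 to -0.05. The number of members called, 5 as reported, was 3 with the non-epithelial score and 3 with the posterior Hox score, 6 after the rescaling without mitochondrial transcripts, and 5 to 5 when a library was left out. Over all genes, 1139 higher and 1090 lower as reported, the counts were 736 and 2233 after that rescaling, 109 and 25 with the non-epithelial score, 168 and 75 with the posterior Hox score, and 746 to 1004 and 616 to 1054 when a library was left out. Without a filter 666 genes were lower. The cause of these shifts was not tested. Irf5 entered the test only without a filter, at -0.23 (limma adjusted p = 0.354). The shift of Nlrc5 minus Ciita was 0.66 with a pseudocount of 0.1 and 1.09 to 1.49 when a library was left out. Irf1 minus Irf2 (0.64 to 0.82), Irf7 minus Irf3 (2.37 to 2.77) and Irf9 minus Stat2 (-0.17 to -0.04) kept their directions. With the replicate number as a block, limma called 760 genes higher, 689 lower and the 5 members. Same-numbered libraries did not deviate together (r = -0.136, 0.032, -0.0332 and -0.071 for numbers 1 to 4) and none correlated best with its own number. These correlations cannot show whether libraries of the same number were handled together, and the reported fit assumed no pairing. The smallest exact permutation p within such pairs is 0.125. TPM keep no depth, so counting error could not be computed. With the non-epithelial score, Ifnar2 moved from 0.38 to -0.28 and Rfx5 from 0.26 to -0.14. Irf2bpl, at -0.07, stood at 0.28 with the posterior Hox score, 0.05 without WT replicate 4 and 0.12 without PIM1+/- replicate 1.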
